A study of Mus musculus with 6 samples.

Results

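The genes of MHC class I antigen presentation were described in injured mouse quadriceps, in wild-type (WT) mice and in ΔdblGATA mice, which lack eosinophils. The members were chosen by symbol as class I chains, β2-microglobulin, and genes of peptide transport, trimming, loading and regulation. All 10 members were found among the 14015 genes with a symbol in the deposited table, and 0 were not listed. Bulk RNA sequencing was performed on muscle collected 7 days after volumetric muscle loss, a surgical removal of part of the quadriceps, in a control injury that received no ECM scaffold. The labels assign 3 mice to WT and 3 to the GATA-1 mutant genotype, which the study names ΔdblGATA. The WT animals were young adult female C57BL/6 mice. The strain background of the ΔdblGATA animals is not given in the sources used here. In ΔdblGATA mice a binding site in a promoter of Gata1 is deleted and eosinophils do not develop.

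MHC class I molecules display peptides from inside the cell on the surface of nearly every nucleated cell, where CD8+ T cells and NK cells read them. Each molecule pairs a heavy chain with β2-microglobulin. Peptides are cut by the proteasome, carried into the endoplasmic reticulum by the transporter of Tap1 and Tap2, trimmed there by Erap1 and loaded with the help of tapasin, the product of Tapbp. Nlrc5 is a transactivator of class I genes. Skeletal muscle fibres are known for low class I expression at rest, while infiltrating leukocytes and endothelial cells carry more.

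The value used for each gene is the authors' mean log2 CPM over the libraries of their fit, with the genotypes pooled. CPM are read counts scaled to the library total, which the authors normalized by the trimmed mean of M-values (TMM). On the linear scale, such a mean of log2 values is a geometric mean. Values per mouse were not analysed here, so no member has a level per genotype, an SD or a test between genotypes. The table does not name the libraries that entered the mean. The depth per library is unknown. To compare genes with each other, the log2 of the transcript length in kb was subtracted from the mean, which gives a level in log2 CPM per kb. All comparisons of levels are descriptions without an error. Each member was also placed among the 13945 genes for which a length was found, as the percentage of these genes with a lower level.

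The sequences that the 4 heavy chains have in common come first, since a read from such a stretch can be assigned to several genes. Exon 4 encodes the α3 domain, the immunoglobulin-like part of the heavy chain that CD8 contacts. The longest run that H2-K1 and H2-D1 had in common was 91 bases of exon 4. It lies at chr17:33997343-33997433 on the minus strand for H2-K1 in GENCODE M21 (GRCm38), and all of it is coding. The capitals mark 31 bases that H2-T23 and H2-Q4 hold as well. Stretches shorter than 31 bases were not marked. Part of the lower-case letters also lies in the runs that H2-D1 shares with H2-T23 and with H2-Q4.
H2-K1 and H2-D1, exon 4: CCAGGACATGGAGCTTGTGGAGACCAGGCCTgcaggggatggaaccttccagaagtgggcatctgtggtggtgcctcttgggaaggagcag
An earlier stretch of the same exon, 39 bases long at chr17:33997475-33997513 in H2-K1, also occurred in all 4 chains.
All 4 chains, exon 4: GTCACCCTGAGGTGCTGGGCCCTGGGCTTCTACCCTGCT
A still longer run of 145 bases was common to H2-D1 (chr17:35265827-35265971, plus strand) and H2-T23.
H2-D1 and H2-T23, exon 4: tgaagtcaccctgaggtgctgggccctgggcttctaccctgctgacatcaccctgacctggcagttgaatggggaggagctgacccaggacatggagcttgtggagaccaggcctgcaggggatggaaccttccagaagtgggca

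Exon 3 encodes the α2 domain, one wall of the peptide-binding groove, and its first 45 bases are shown for contrast. In GRCm38 exon 3 lies at chr17:33999271-33999546 (minus strand) in H2-K1, chr17:35263839-35264114 (plus) in H2-D1, chr17:36031638-36031913 (minus) in H2-T23 and chr17:35380361-35380636 (plus) in H2-Q4, and all are coding.
H2-K1, exon 3: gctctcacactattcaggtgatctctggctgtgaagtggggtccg
H2-D1, exon 3: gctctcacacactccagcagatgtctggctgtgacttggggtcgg
H2-T23, exon 3: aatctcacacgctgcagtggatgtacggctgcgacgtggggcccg
H2-Q4, exon 3: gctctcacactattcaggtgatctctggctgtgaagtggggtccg
H2-K1 and H2-Q4 have the same first 45 bases. Over the 276 bases of the whole exon, aligned without gaps, these chains were 91.3% identical, and H2-K1 and H2-D1 were 88.0% identical. H2-T23 stood apart, at 70.7% identity with H2-K1, 69.2% with H2-D1 and 69.6% with H2-Q4. In exon 4, also 276 bases long, every pair of the 4 chains was between 92.8% (H2-K1 and H2-Q4) and 96.4% identical (H2-D1 and H2-T23).

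B2m and the classical chains had the highest levels of the members, and the regulator Nlrc5 the lowest. B2m, which encodes the light chain β2-microglobulin, had an authors' mean of 8.15 log2 CPM. With its short transcript of 860 nt this gives 8.37 log2 CPM per kb, above 98.9% of genes. H2-D1, a classical heavy chain that presents peptides to CD8+ T cells, had a mean of 8.48 log2 CPM and a level of 7.41 log2 CPM per kb. H2-K1, the other classical chain among the members, had a mean of 7.85 log2 CPM and a level of 7.16 log2 CPM per kb. These were the 3 members above the 95th percentile of all genes, which lay at 6.21 log2 CPM per kb. None of the members reached the 99th percentile, at 8.44.

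The non-classical chains were lower. H2-T23, which encodes Qa-1, a ligand of the NK receptor CD94/NKG2A, had a mean of 4.94 log2 CPM and a level of 4.39 log2 CPM per kb, above 82.6% of genes. H2-Q4, a chain of the Qa group, had a mean of 5.01 log2 CPM and a level of 4.17 log2 CPM per kb, above 80.3% of genes. The classical pair stood 2.77 log2 CPM per kb above the next member, the largest gap among the members after that between Erap1 and Nlrc5. With the median coding length the member below H2-K1 (7.89) was Tap2 (6.32). Tapbp (5.84) and Erap1 (5.72) then also lay above H2-T23 and H2-Q4. Summed on the linear scale, H2-K1 and H2-D1 had 312 CPM per kb and H2-T23 and H2-Q4 had 38.9 CPM per kb, so the classical chains made up 88.9% of the 4. The ratio of 8.03 became 12.2 when the longest transcript of any kind set the length, and 28.6 with the median length of a gene's coding transcripts, which for H2-D1 is that of a short partial model.

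B2m alone had 330 CPM per kb, against 351 CPM per kb for the 4 chains together, a ratio of 0.939 that was 1.04 with the longest transcript of any kind and 0.286 with the median coding length. As every class I chain needs this light chain, the other H2 class I genes were added. The 9 that are listed had 54.6 CPM per kb in all, and the ratio of B2m to all H2 class I genes listed was 0.812. Listed class I-like genes without an H2 symbol, of which Fcgrt was the highest at 30.1 CPM per kb, were not added. The ratio of 0.812 thus covers H2 genes only, and it was not computed with the other lengths.

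Tap1, Tap2 and Tapbp had levels between 2.62 and 3.13 log2 CPM per kb, above the median of all genes. Tap2 (4.91 log2 CPM) and Tap1 (4.18 log2 CPM), the subunits of the peptide transporter, had 3.13 and 2.62 log2 CPM per kb. Tapbp, whose product tapasin holds the empty class I molecule at the transporter, had a mean of 4.57 log2 CPM and a level of 3.03 log2 CPM per kb. The median of all genes was 2.28 log2 CPM per kb, and these 3 genes were above 64.9%, 56.0% and 63.3% of genes, in the order Tap2, Tap1, Tapbp. Tap2 was thus 1.42 times Tap1 and 1.07 times Tapbp. No error is at hand to rank these 3 genes, and with the median coding length Tap2 was at 6.32, Tapbp at 5.84 and Tap1 at 2.80 log2 CPM per kb, so that Tap2 was 11.5 times Tap1.

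Erap1, the aminopeptidase that shortens peptides in the endoplasmic reticulum, had a mean of 4.75 log2 CPM, but its transcript of 5644 nt is long, and its level of 2.26 log2 CPM per kb was above 49.7% of genes. Nlrc5 had a mean of 1.51 log2 CPM, or 2.84 CPM. With a transcript of 7578 nt its level was -1.42 log2 CPM per kb, above 8.9% of genes. Erap1 was 12.7 times Nlrc5 per kb, and the members spanned 880-fold from B2m to Nlrc5. With the median coding length Erap1 was at 5.72 log2 CPM per kb and 106 times Nlrc5, and H2-D1, at 9.78, took the place of B2m as the highest member. The median member was at 3.65 log2 CPM per kb and the median percentile was 72.6, with 8 of the 10 members above the median of all genes.

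**Figure D1:**
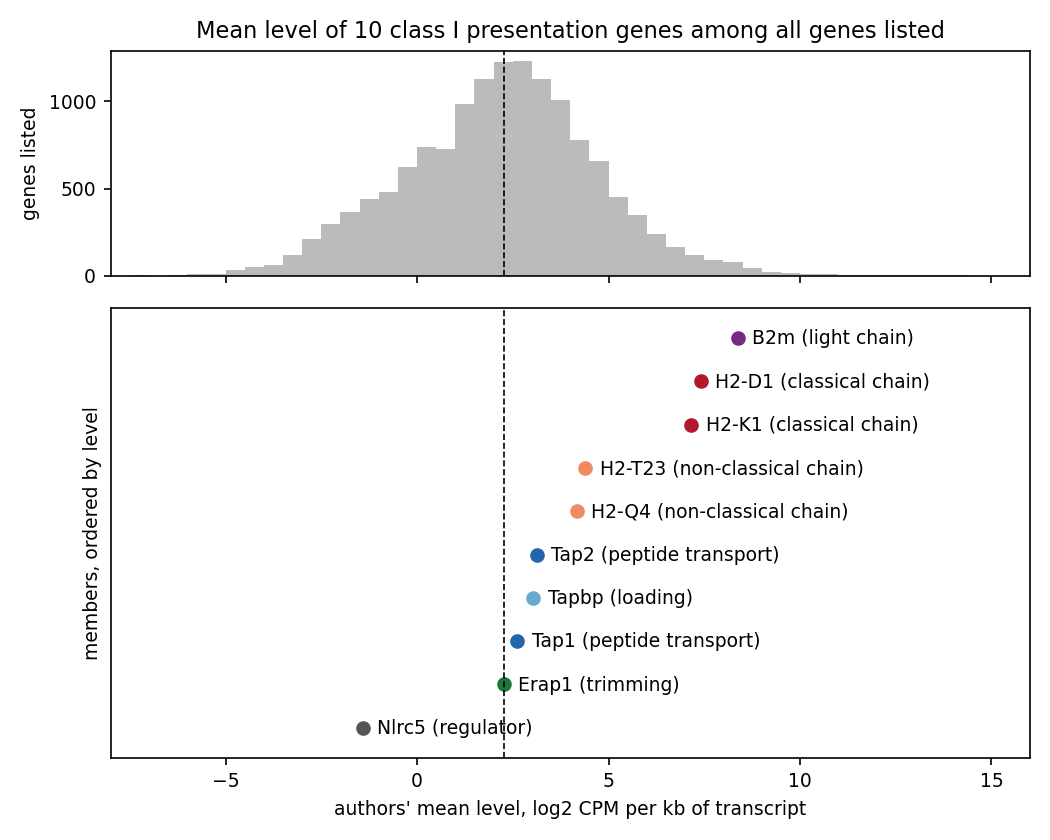
Upper panel: number of listed genes (y axis) by the authors' mean level in log2 CPM per kb of transcript (x axis, bins of 0.5). Lower panel: the 10 members on the same x axis, coloured by role, with the dashed line at the median of all genes, 2.28. B2m, H2-D1 and H2-K1 lie between 7.16 and 8.37, Nlrc5 lies at -1.42, and the other 6 members lie between 2.26 and 4.39. The points have no error bars because values per mouse were not analysed.

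Several steps in this order depended on the transcript length used. H2-D1 was 1.19 times H2-K1, but 1.37 times with the longest transcript of any kind and 3.71 times with the median coding length. H2-Q4 was 0.859 times H2-T23. The last order turned over when the longest transcript of any kind set the length, with H2-Q4 then 1.06 times H2-T23. The length of H2-D1 includes a first exon of 457 nt in GENCODE M21, which begins upstream of the start that RefSeq annotates. B2m was 1.95 times H2-D1, but 0.376 times H2-D1 with the median coding length, so the order of these 2 turned over as well. Neighbours in the order, such as Tap2 and Tapbp, cannot be ranked without an error.

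Other genes of the pathway were taken from lists by function, and the genes with the highest and lowest levels are named. All 8 genes of peptide supply were listed, with a median of 5.67 log2 CPM per kb, from Psmb7 at 7.64 to Psmb8 at 2.60. Within this list, and noted after the values were seen, the constitutive catalytic subunits of the proteasome Psmb5, Psmb6 and Psmb7 had 7.39, 7.59 and 7.64 log2 CPM per kb. Their interferon-inducible counterparts Psmb8, Psmb9 and Psmb10, which form the immunoproteasome, had 2.60, 2.62 and 3.62 log2 CPM per kb. For loading and folding, 7 of 8 genes were listed, with a median of 5.26 log2 CPM per kb, from the chaperone calreticulin (Calr) at 7.37 to the tapasin relative Tapbpl at 1.59. Tapbp at 3.03 was thus above Tapbpl and below Calr.

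Of 18 other class I and class I-like genes 13 were listed, with a median of 2.71 log2 CPM per kb. The highest was Fcgrt, the neonatal Fc receptor, at 4.91, and the lowest was H2-M2 at -1.47. Each of the 13 was below H2-K1, H2-D1 and B2m. H2-T22, at 4.40 log2 CPM per kb, was the highest of the H2 genes that are no members, and is named after its value was seen. The levels of these H2 genes are uncertain where they share words with each other. All 11 regulators were listed, with a median of 3.17 log2 CPM per kb, from Rela, a subunit of NF-κB, at 3.77 to Rfxank, a part of the RFX complex that binds class I and class II promoters, at 0.98. Nlrc5 was below each of them. Of 8 genes for receptors that read class I, 3 were listed. The highest was the inhibitory receptor Pirb of myeloid cells at 2.23 log2 CPM per kb, and the lowest Cd8a, the coreceptor of cytotoxic T cells, at -2.36.

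**Figure D2:**
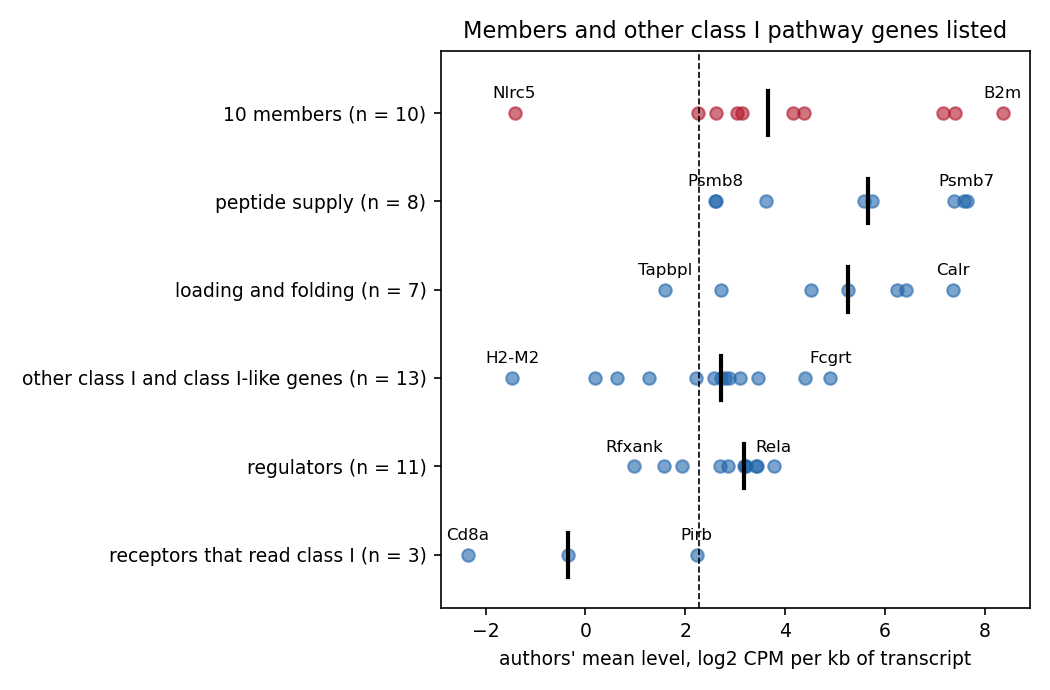
Authors' mean level in log2 CPM per kb of transcript (x axis) for the members and for 5 lists of other class I pathway genes (rows, with the number listed). Each point is a gene, black bars are medians, the dashed line is the median of all genes at 2.28, and the highest and lowest gene of each row is named. The receptors that read class I lie at or below 2.23, while peptide supply reaches 7.64.

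The tissue label was checked against marker genes. All 5 markers of skeletal muscle fibres were listed, between 10.56 (Mb) and 13.77 log2 CPM per kb (Acta1), so each exceeded every member. Of 3 leukocyte markers 3 were listed, from Ptprc at 2.42 to Laptm5 at 4.77, and of 4 macrophage markers 3, from Mrc1 at 3.30 to Cd68 at 4.75. All 3 endothelial markers were listed, from Kdr at 3.07 to Pecam1 at 4.63, and all 3 fibroblast markers, from Pdgfra at 2.95 to Col1a1 at 9.10. T and NK cell markers were low, with 3 of 4 listed and Nkg7 the highest at -0.63 log2 CPM per kb. Of 5 eosinophil markers only Ear2 was listed, at 0.61 log2 CPM per kb. Markers were looked up by their exact symbol, so a marker of any list that was not listed has no level here. H2-K1 and H2-D1 thus lay above each listed leukocyte, macrophage and endothelial marker, and H2-T23 and H2-Q4 lay within their range. The median of the fibroblast markers, 8.07 log2 CPM per kb, lay above both classical chains. In bulk muscle, the number of cells of a type and the RNA per cell cannot be told apart, and which cells the class I transcripts came from was not tested.

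Sharing of sequence between the members and other genes was measured in words of 31 bases, the default word length of kallisto, the pseudoaligner that the authors used to assign reads. B2m had 0 of 830 words in any other gene, and Nlrc5 had 13 of 7548 (0.172%). Among the 4 chains the share rose from 23.3% in H2-K1 and 27.7% in H2-D1 to 49.3% in H2-T23 and 58.4% in H2-Q4. The partner with most words of H2-K1 was H2-D1 (269 words), and that of H2-D1 was H2-K1 (268 words). For H2-T23 it was the pseudogene H2-T-ps (365 words) and for H2-Q4 the predicted gene Gm11131 (318 words), followed by H2-Q6 (301 words). The 4 chains all held 25 words in common. Pseudoalignment divides a read pair among several genes only where each of them is compatible with all of its words. How many read pairs this concerned was not measured, so the levels of the chains are uncertain. H2-Q4 was the one member with more than 50% of its words elsewhere. A share of words is not a measured error of the counting.

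The words found in other genes were not spread evenly along the chains. In exon 4 the share was 54.1% for H2-K1, 72.0% for H2-D1, 71.1% for H2-T23 and 76.8% for H2-Q4. In exon 3 it was 25.6%, 33.7%, 33.7% and 37.4% in the same order. After the coding region, 356 of the 392 words of H2-K1 were its own, against 10 of 185 for H2-T23. H2-K1, H2-T23 and H2-D1 each began with a run in which no word occurred in another gene, of 209, 240 and 486 nt.

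**Figure D3:**
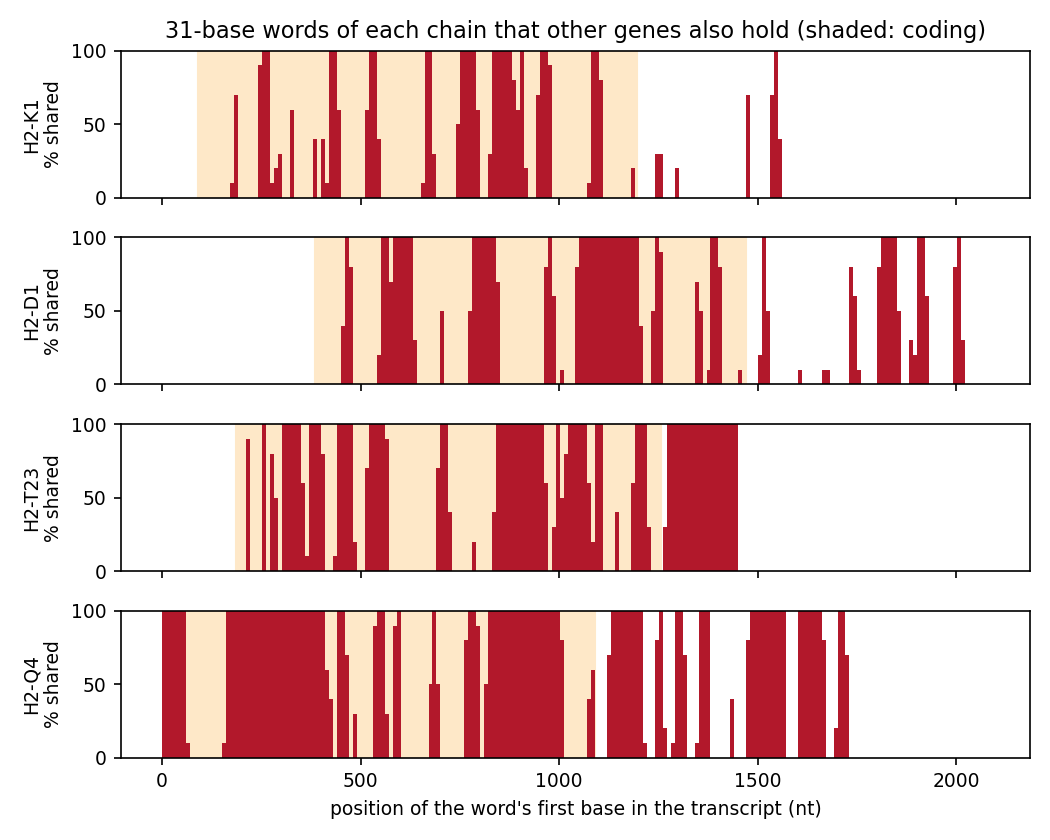
Percentage of 31-base words that other genes also hold (y axis, mean of 10 successive words) by the position of the word's first base in the transcript (x axis, nt), one panel for each heavy chain, with the coding region shaded. Red bars are denser in H2-Q4 and H2-T23, where 58.4% and 49.3% of words are shared, than in H2-K1 and H2-D1, where 23.3% and 27.7% are.

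Outside the chains, 1 gene held most of the shared words of each of Erap1, Tap1, Tap2 and Tapbp. Fewer words occurred in further genes, with 69 partner genes in all for Erap1 and 1748 for Tapbp. Erap1 had 804 of its words (14.3%) in Cast, and Tap1 had 182 words in Psmb9, with 7.73% shared in all. Tap2 shared 15.5%, of which 412 words were in the predicted gene Gm15821, and Tapbp shared 23.9%, of which 598 words were in Gm19412. Whether the counting used strand is not given in the sources used here. Where such a partner overlaps a member, it is thus not known how far their reads were told apart.

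By position, 7 of the members lie on chromosome 17 of GRCm38 within 2.12 Mb, from Tapbp, which begins at 33915899, to H2-T23, which ends at 36032855. This is the mouse MHC. H2-K1 (chr17:33996017-34000347) lies near Tapbp, followed by Tap1 (chr17:34187553-34197225), Tap2 (chr17:34203527-34216321), H2-D1 (chr17:35262730-35267499), H2-Q4 (chr17:35379617-35385290) and H2-T23 itself (chr17:36029773-36032855). B2m (chr2:122147686-122153083), Nlrc5 (chr8:94434356-94527272) and Erap1 (chr13:74639568-74693201) lie on other chromosomes. The members within the MHC had levels between 2.62 and 7.41 log2 CPM per kb, while the highest and the lowest member, B2m and Nlrc5, both lie outside it.

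Promoter windows of 300 bases, with 250 before and 50 after the annotated start, were found in RefSeq (GRCm38.p6) for 8 members. Tap2 and Nlrc5 were not matched. H2-K1 has 2 windows, of which the first was used. They were searched on both strands for short motifs that class I promoters are known to hold, and the matches are shown to compare the chains with B2m. A match describes letters in the window, not binding. The NF-κB consensus, shown in capitals, was found in H2-K1, H2-D1, H2-Q4 and B2m, 4 of the 8 windows, and in 8.46% of all 32851 promoter windows. Matches overlap each other in the 3 chains, and 1 is shown for each gene.
H2-K1, at -111 from the start (chr17:34000441-34000466): ccagggctGGGGATTCCCcatctcca
H2-D1, at -171 (chr17:35262915-35262940): ccagggctGGGGATTCCCcatctcct
H2-Q4, at -174 (chr17:35379435-35379460): tcaggggtGGGGATTTCCcatctccc
B2m, at -126 (chr2:122147553-122147578): tgaaaatgGGAAAGTCCCtttgtaac
H2-K1 and H2-D1 have the same 10 letters in this match.

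TGACG, the core of the element that CREB and ATF factors bind within the class I SXY module, was found in 5 of the 8 windows and in 20.8% of all windows.
H2-K1, at -41 (chr17:34000376-34000396): gacactgtTGACGcgcagtca
H2-D1, at -101 (chr17:35262985-35263005): gacactgaTGACGcgctggca
H2-Q4, at -73 (chr17:35379536-35379556): ccattgggTGACGtgatcacc
B2m, at -78 (chr2:122147601-122147621): gagactggTGACGacctccgg
Tap1, at -86 (chr17:34187462-34187482): gagacaggTGACGacagaggg
CCAAT, the letters of the Y box, was found in 7 of the 8 windows, those of H2-K1, H2-D1, H2-T23, H2-Q4, B2m, Tap1 and Tapbp, against 37.4% of all windows. TATAA was found in 4, those of H2-K1, H2-D1, H2-Q4 and B2m, against 24.9% of all windows. These 4 are also the windows with the NF-κB consensus. In H2-K1, H2-D1 and B2m, TGACG was followed by CCAAT on the opposite strand, at -16, -76 and -53. In H2-Q4 such a CCAAT, at -79, came before the TGACG shown, and in Tap1 CCAAT lay at -222. The letters alone thus do not place every TGACG in the SXY module. No relation of these letters to the levels was tested.

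A motif of interferon regulatory factors, spelled as GAAA, any 2 bases and GAAA, was found in B2m, H2-T23 and Erap1, 3 of the 8 windows, against 3.44% of all windows. Other spellings of the motif were not searched, so windows without a match may hold them. The matches of H2-T23 and Erap1 are on the opposite strand. GENCODE M21 starts the transcripts of H2-D1, H2-T23 and Erap1 used here upstream of RefSeq, and the matches shown for these 3 genes lie within its exon 1.
B2m, at -139 (chr2:122147540-122147565): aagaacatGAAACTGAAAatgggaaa
H2-T23, at -124 (chr17:36032808-36032833): cctactgcTTTCTCTTTCataaagac
Erap1, at -4 (chr13:74639841-74639866): accttcacTTTCACTTTCggtcccgg
The window of Tapbp held CCAAT alone of the motifs searched, and that of Erap1 held the GAAA motif alone.

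**Figure D4:**
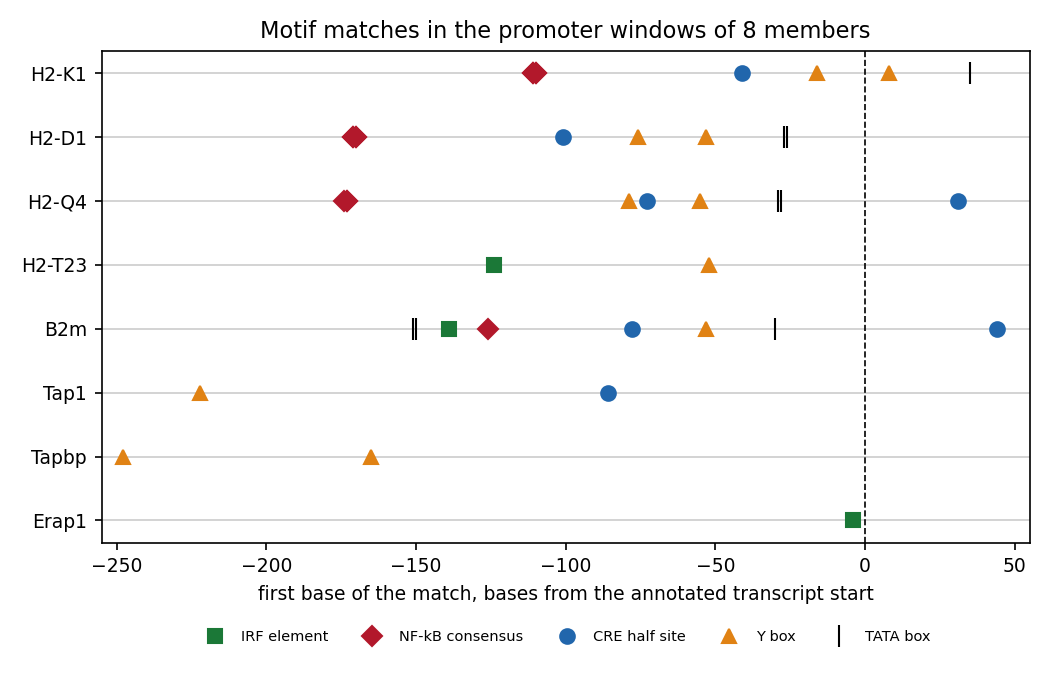
Matches of 5 motifs (symbols) in the promoter windows of 8 members (rows) by the distance of the first base of the match from the annotated transcript start in bases (x axis, negative is upstream). Matches on both strands are drawn, so palindromic letters give neighbouring symbols. In H2-K1 and H2-D1 the NF-κB consensus, TGACG and CCAAT follow each other in the same order, at -111 and -41 in H2-K1 and at -171 and -101 in H2-D1 for the first 2 of these. TATAA lies after the annotated start in H2-K1, at 35, and before it in H2-D1, at -27 and -26. Distances depend on where the start is annotated.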

How the data were processed

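Quadriceps muscle of 3 WT and 3 ΔdblGATA mice was sequenced as poly(A) RNA with ERCC spike-in. The authors pseudoaligned the reads with kallisto, collapsed transcripts to genes, and derived CPM in edgeR. Their filter, as described, required more than 1 CPM in 3 or more libraries, and limma followed on TMM-scaled log2 values. The lowest mean among the genes listed was -4.08 log2 CPM, which is low for such a filter. How the filter acted on the values used here is therefore not known. The submitters' processing notes name GRCm39 and mm39. The transcript index, the versions of kallisto and edgeR and the strand setting are not given in the sources used here.

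The deposited table has 14016 rows, 1 without a symbol. Its mean log2 CPM, the authors' mean, is the only column used. The other columns hold the authors' own comparison of the genotypes (fold change, moderated t, p-value, adjusted p-value and log-odds) and were not used. The analysis planned for values per mouse was therefore not made. Depth per library is unknown.

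Lengths came from GENCODE M21 (GRCm38), for 13458 genes by their own symbol and for 487 by a RefSeq synonym, so that 13945 genes (99.5%) had a length, that of the longest coding transcript. Words of 31 bases of that transcript were looked up in all transcripts of other genes on both strands. Promoter windows came from RefSeq (GRCm38.p6). The genes named are the 10 members, and the highest and lowest gene of each list of other pathway genes and markers. Psmb5, Psmb6, Psmb9, Psmb10 and H2-T22 were named outside this rule, after their values were seen, and partner genes of shared words by their number of words. Members and lists were chosen with earlier results of these data known. Calculations used Python 3.11.15, pandas 2.3.3, numpy 2.4.6 and matplotlib 3.10.9, and the percentile and word functions were tested on simulated data. The alternatives were other transcript lengths, no length term, protein-coding genes only, a minimum mean expression and words of 21 bases.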

Additional observations from a re-analysis of the deposited data

How the results depend on the processing

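No paired analysis was possible because the table used here has no column for a single mouse, and for the same reason the fits of genotype, the fits leaving out each mouse and the other normalizations were not run. The tolerance was set after the data were seen. A level was taken as the same when it moved by under 0.05 log2 CPM per kb, and a ratio or percentile when it moved by under 5%. With the longest transcript of any kind the median level of the members was 3.34 log2 CPM per kb against 3.65, the ratio of B2m to the 4 chains 1.04 against 0.939, and that of classical to non-classical chains 12.2 against 8.03. With the median length of the coding transcripts, which for Tap2, Tapbp, H2-D1 and Erap1 is that of short partial models, these values were 5.78, 0.286 and 28.6, and the median percentile was 88.9 against 72.6. Without a length term the median percentile was 67.2, and among genes whose mean reached 1 log2 CPM it was 67.8. The median percentile under the other lengths was added after seeing the data. With words of 21 bases, 2 members had most of their words in other genes, H2-Q4 (70.9%) and H2-T23 (62.6%), against 1 with words of 31 bases. Protein-coding genes alone, and the longest transcript of any kind, kept the median percentile within 5%, at 72.4 and 70.0. The summed classical chains were above the summed non-classical ones with all 3 lengths.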
